A study of Arabidopsis thaliana with 16 samples.

Results

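Ethylene and the auxin indole-3-acetic acid (IAA) were each given to wild-type Arabidopsis roots, and the change each hormone caused was set against that of the other, probe set by probe set. The quantity is the hormone contrast, (Col ethylene minus Col air) minus (Col IAA minus Col mock), in log2 units of the deposited expression values. A positive contrast means that ethylene moved a probe set further up, or less far down, than IAA did. The probe sets were all those outside the array controls that lay above 4 on the log2 scale on at least 2 of 16 arrays. There were 14244 of them, out of 22746 on the array.

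Seedlings of the Col-0 wild type (Col) were grown on plates for 3 days in the dark at 22 °C, and roots were cut from the hypocotyls after 4 h of treatment. The groups were Col in 10 ppm ethylene, Col in hydrocarbon-free air, Col given 1 µM IAA in 0.01% ethanol, and Col given a mock solution of 0.01% ethanol, with 2 arrays each, described as biological replicates. Each hormone therefore had its own control, and the gas and the solution were separate experiments. Mutant groups of 2 arrays each supplied a second measurement that shares no array with Col: aux1-7 in ethylene and in air, and ein2-5 with IAA and with mock. aux1-7 impairs an auxin influx carrier and ein2-5 makes plants insensitive to ethylene. Each hormone was given at 1 dose, and the doses are not matched in strength, so a contrast compares these 2 treatments and not equal amounts of hormone. Whole roots were measured, so more RNA per cell and more cells of a type cannot be told apart.

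Ethylene is a gas perceived by receptors at the endoplasmic reticulum, which repress the pathway until ethylene binds them. EIN2 and the EIN3 family of transcription factors then carry the signal to the nucleus. Auxin is perceived by TIR1/AFB F-box proteins, which have Aux/IAA repressors degraded and so free auxin response factors to act on genes such as the GH3 and LBD families. In roots both hormones inhibit elongation, and ethylene acts in part by raising auxin synthesis and transport, which is why the genes that tell the hormones apart are of interest.

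The 2 arrays of each group correlated at 0.982 to 0.993 over the tested probe sets. Col air was the widest group, with a pooled SD of 0.307 between its arrays, against 0.187 to 0.251 in the other groups. One array stood apart in genes of green tissue. The mean level of 16 photosynthesis genes was 8.38 on the first Col mock array, against 6.80 to 7.55 on the other 15 arrays, and 13 of the 16 were highest there. Total counts without that array are given for the contrast and for IAA, and lost calls for some named genes. The classes and shares built on the IAA calls were not recounted without it. Its part in them was not tested. Of 12 root marker genes only EXPA7, an expansin of root hair cells, had a named probe set that was tested, and it lay between 7.43 and 10.21 on the Col arrays. Names were used only for the 7642 loci with a probe set of their own. Another 6194 probe sets carried no gene in the annotation supplied and are counted without a name. In a locus code such as AT5G19890, the digit after AT is the chromosome.

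IAA raised 3 GH3 genes and LBD29 strongly, and none of them passed the test for a rise in ethylene. Ethylene raised ARL, RTE1, XTH26 and CSLC12, while none of these passed the test for IAA. In all, 609 of 14244 probe sets were called in the contrast, 4.28%, with limma at a Benjamini-Hochberg adjusted p under 0.05, two-sided. Of these, 291 were positive (2.04%) and 318 negative (2.23%). The median size among called probe sets was 1.44 and the smallest 0.53, against a median standard error (SE) of 0.22, and 462 of them differed by at least 2-fold. Over all 14244 the median contrast was 0.0086. The count was 366 without the first IAA array (158 positive, 208 negative), 384 without the second mock array (173 positive, 211 negative) and 447 without the first mock array. With the replicate number as a block the count was 1018. Positive calls outnumbered negative ones without the first air array, and negative calls led without the second, so the split is not firm.

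**Figure D1:**
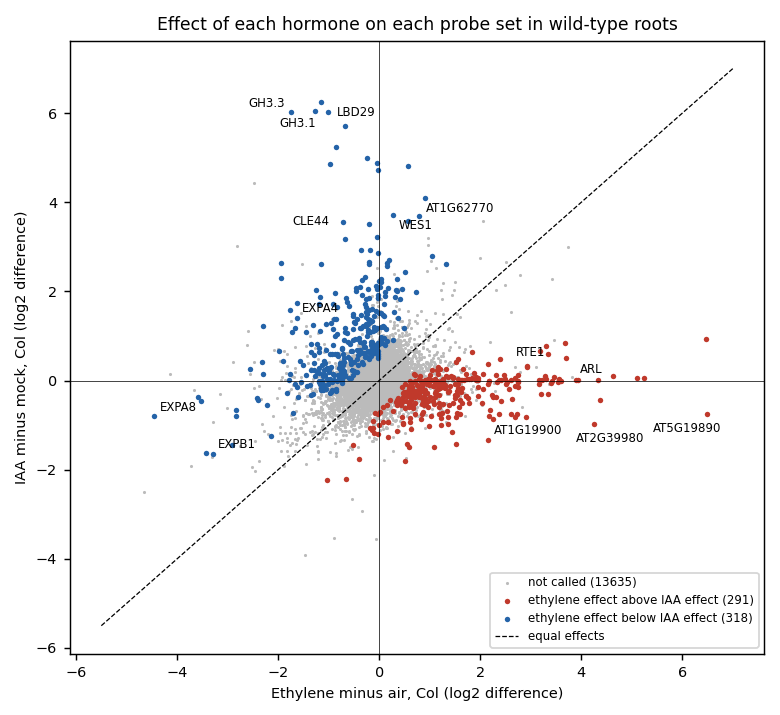
Each point is 1 of 14244 probe sets, with the ethylene minus air difference in Col on the horizontal axis and the IAA minus mock difference in Col on the vertical axis, both in log2 units. Red points are the 291 called with the ethylene effect above the IAA effect, blue points the 318 called below it, grey points the rest, and the dashed line marks equal effects. The called points lie along both axes, with GH3.3, GH3.1 and LBD29 at the top and AT5G19890 at the far right.

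For scale, ethylene alone gave 1246 called probe sets against air (8.75%), of which 567 were higher (3.98%) and 679 lower (4.77%). IAA alone gave 973 called against mock (6.83%), of which 582 were higher (4.09%) and 391 lower (2.75%). The IAA count was 413 without the first mock array, 421 without the first IAA array, 496 without the second mock array and 516 without the second IAA array, and 1604 with the replicate block. The ethylene count was 731 without the first ethylene array, with 330 higher and 401 lower. Its split between directions moved with the air arrays, to 594 higher and 487 lower without the first and 358 higher and 565 lower without the second, and the 526 calls of at least 2-fold were 286 higher and 240 lower. The spread of effects over all probe sets was similar, with an SD of 0.49 for ethylene and 0.43 for IAA.

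How a called contrast arose differed between the directions. Among the 291 positive probe sets, 229 were higher in ethylene and not called for IAA, with medians of 1.35 for ethylene and −0.12 for IAA. Another 31 were lower with IAA and not called for ethylene, with medians of 0.18 for ethylene and −0.97 for IAA. Ethylene and IAA moved 14 in opposite directions, up and down. The remainder were 15 called for neither hormone and 2 lowered by both, which carry no single named gene. Among the 318 negative probe sets, 153 were higher with IAA and not called for ethylene, with medians of −0.16 for ethylene and 1.39 for IAA. Another 105 were lower in ethylene and not called for IAA, with medians of −1.05 for ethylene and 0.13 for IAA. A further 37 were lower in ethylene and higher with IAA, 7 were lowered by both, 5 raised by both, and 11 were called for neither hormone. All 26 probe sets of either direction that were called for neither hormone had effects of opposite sign, which follows from how the contrast is computed.

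**Figure D2:**
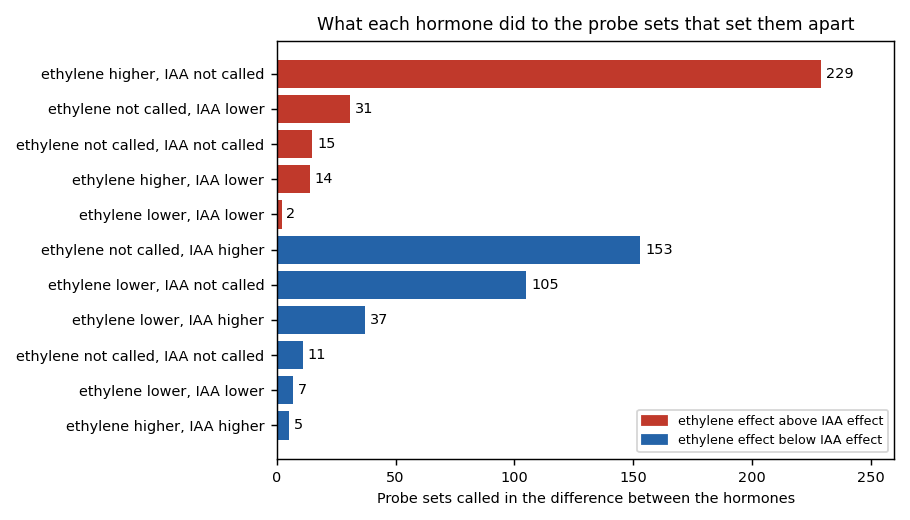
Bars give the number of called probe sets in each class, by whether ethylene against air and IAA against mock were called higher, lower or not at all in Col, with the count printed at each bar. Red bars have the ethylene effect above the IAA effect and blue bars below it. The longest bars are 229 probe sets raised by ethylene with no call for IAA and 153 raised by IAA with no call for ethylene.

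A call for 1 hormone was often not a call in the contrast. Of the 567 probe sets raised by ethylene, 243 (42.9%) were called in the contrast with the same sign, and of the 582 raised by IAA, 195 (33.5%) were called with the ethylene effect below the IAA effect. For falls, the shares were 149 of 679 with ethylene (21.9%) and 47 of 391 with IAA (12.02%). The contrast uses the same arrays as these effects, so the shares describe the calls and were not tested.

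The hormones also moved many probe sets the same way. Both hormones were called at 273 probe sets, 222 of them in the same direction, 69 up and 153 down. Among those raised by both, the median was 0.99 for ethylene and 0.89 for IAA, and among those lowered by both it was −0.91 for ethylene and −0.88 for IAA. Of the 222, 208 were not called in the contrast. That does not show equal effects, but for 152 of the 208 the 95% confidence interval of the difference lay within −1 to 1, and the median difference was 0.22 in size. All 51 probe sets moved in opposite directions were called in the contrast. Opposite effects add up in the contrast, so these calls follow largely from how it is computed.

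The GH3 genes encode amido synthetases, most of which join IAA to amino acids and so remove free auxin. All 4 tested members had negative contrasts that were called, against 2.23% of all probe sets, with a median of −5.38. The list was compiled with earlier results of these arrays known, so the count is no independent evidence of a direction. GH3.3 (AT2G23170) stood at 5.99 and 6.02 in ethylene, against 9.44 and 6.04 in air, and at 13.56 and 13.57 with IAA, against 7.82 and 7.27 in mock. The IAA arrays were far above every other array, and the air arrays disagreed with each other by over 3 log2 units. Its contrast was −7.76 ± 1.07 (moderated SE, limma adjusted p = 0.00131), −6.06 without the first air array and −9.46 without the second.

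GH3.1 (AT2G14960) was at 2.20 and 1.97 in ethylene, 4.16 and 2.53 in air, 8.79 and 8.32 with IAA, and 2.46 and 2.56 in mock. Only the IAA arrays and the first air array stood well above 2.55, the highest lower quartile of any array and here taken as the background level. Its contrast was −7.32 ± 0.55 (adjusted p = 1.98e-05), and its fall in ethylene, −1.27 ± 0.39, did not pass the test (adjusted p = 0.0704). WES1, also called GH3.5 (AT4G27260), was at 9.03 and 9.14 in ethylene, 8.85 and 8.76 in air, 12.03 and 12.57 with IAA, and 8.45 and 8.72 in mock. Its groups other than IAA lay within 1 log2 unit of each other, and its contrast was −3.44 ± 0.24 (adjusted p = 1.15e-05).

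GH3.17 (AT1G28130) reached its contrast from the other side. It stood at 9.45 and 9.53 in ethylene, 10.55 and 10.83 in air, 10.88 and 11.14 with IAA, and 10.76 and 10.70 in mock. Ethylene lowered it (difference −1.20 ± 0.13, adjusted p = 0.000142), whereas the IAA difference of 0.28 ± 0.13 did not pass (adjusted p = 0.243). Its contrast was −1.48 ± 0.18 (adjusted p = 0.000539).

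LBD29 and LBD16 encode transcription factors that act in lateral root initiation downstream of auxin response factors. LBD29 (AT3G58190) was at 3.40 and 4.00 in ethylene, 4.55 and 4.88 in air, 10.21 and 10.61 with IAA, and 4.16 and 4.63 in mock. It was lower in every ethylene array than in either air array, and the IAA arrays stood above all the others. Its contrast was −7.03 ± 0.40 (adjusted p = 2.32e-06), made of an ethylene difference of −1.02 ± 0.28 (adjusted p = 0.0483) and an IAA difference of 6.02 ± 0.28 (adjusted p = 3.19e-07). LBD16 (AT2G42430) did not tell the hormones apart by the test. It was at 8.12 and 8.50 in ethylene, 7.83 and 7.54 in air, 8.72 and 8.44 with IAA, and 7.19 and 7.60 in mock, with a contrast of −0.56 (95% interval −1.18 to 0.07, adjusted p = 0.389). IAA18, the single Aux/IAA repressor gene tested, had a contrast of −0.15 (adjusted p = 0.848).

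PUCHI (AT5G18560), an AP2-domain factor that shapes lateral root primordia, was named after its values were seen. It was at 2.14 and 2.33 in ethylene, 2.38 and 2.75 in air, 4.39 and 5.11 with IAA, and 2.57 and 2.40 in mock, so it was well above background only with IAA. Its contrast was −2.60 ± 0.38 (adjusted p = 0.00202). CLE44 (AT4G13195) encodes the precursor of the TDIF peptide, which controls vascular stem cells. It was at 5.40 and 5.76 in ethylene, 6.39 and 6.20 in air, 9.61 and 9.79 with IAA, and 6.04 and 6.23 in mock. Ethylene lowered CLE44 slightly (−0.71 ± 0.16, adjusted p = 0.0146) while IAA raised it (3.57 ± 0.16, adjusted p = 2.51e-07), and the contrast was −4.28 ± 0.22 (adjusted p = 1.36e-06).

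**Figure D3:**
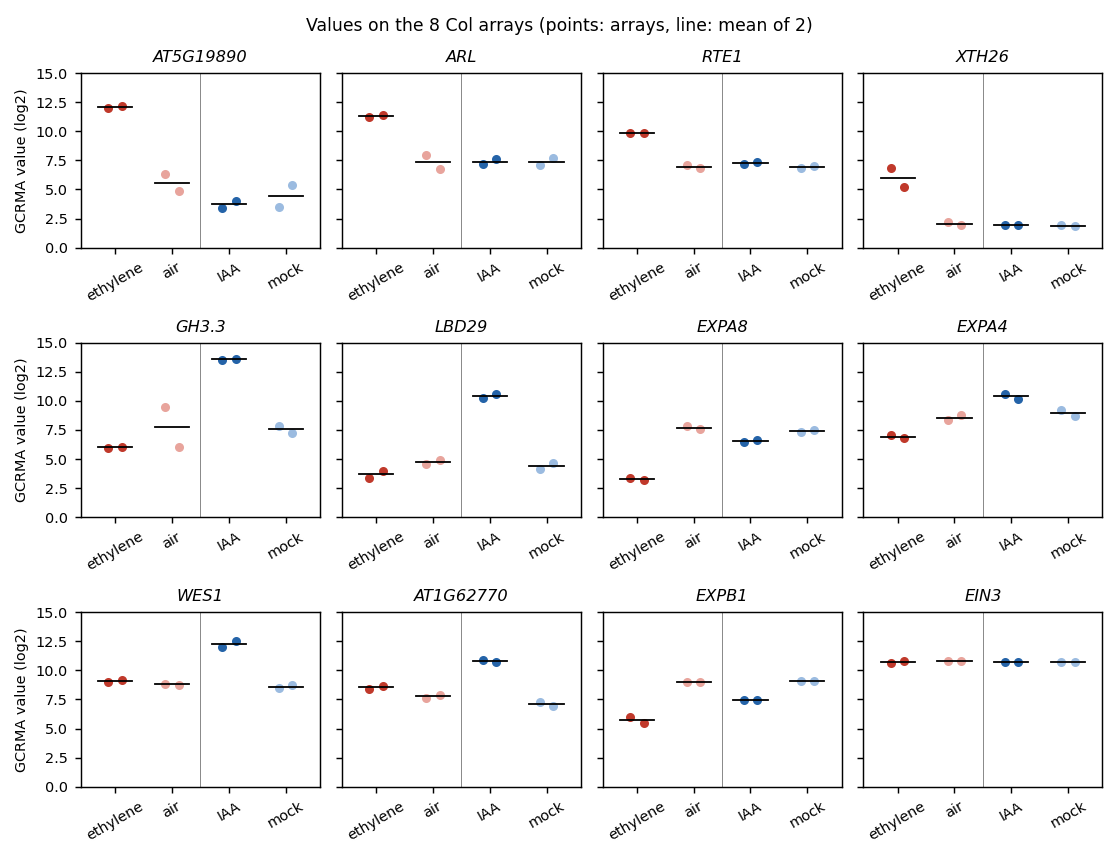
Deposited log2 values of 12 genes on the 8 Col arrays, with points for arrays and a line for the mean of 2, in the order ethylene, air, IAA and mock. AT5G19890, ARL, RTE1 and XTH26 are high in ethylene, GH3.3, LBD29, WES1 and AT1G62770 are high with IAA, EXPA8 and EXPB1 are lowest in ethylene, EXPA4 is lowest in ethylene and highest with IAA, and EIN3 is level.

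On the ethylene side, the list of receptors and signalling components had 2 tested members. RTE1 (AT2G26070), which supports the ETR1 receptor and so restrains the ethylene response, was at 9.89 and 9.87 in ethylene, 7.07 and 6.85 in air, 7.16 and 7.36 with IAA, and 6.87 and 7.05 in mock. Both ethylene arrays stood over 2 log2 units above all the other Col arrays, and the contrast was 2.62 ± 0.25 (adjusted p = 0.000102). EIN3, the transcription factor that carries the response, differed by −0.07 (95% interval −0.51 to 0.37), with levels from 10.68 to 10.83 on all 8 arrays. Its activity is known to be set by protein stability, which arrays do not measure.

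ARL (AT2G44080) is related to ARGOS, a family whose members promote organ growth and dampen ethylene responses. It was at 11.21 and 11.37 in ethylene, 7.98 and 6.79 in air, 7.19 and 7.59 with IAA, and 7.08 and 7.68 in mock. IAA left no difference that passed (0.01 ± 0.35, adjusted p = 0.991), and the contrast of 3.89 ± 0.50 (adjusted p = 0.0008) came from the ethylene arrays. RR16 (AT2G40670), a type-A response regulator of cytokinin signalling, was at 5.57 and 4.39 in ethylene, 3.07 and 3.27 in air, 2.78 and 2.77 with IAA, and 2.77 and 2.72 in mock. Its contrast of 1.78 ± 0.40 (adjusted p = 0.0269) lost its call without either mock array, among other settings.

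IAGLU (AT4G15550), named as a glucosyltransferase that acts on IAA, was also picked after its values were seen. What the enzyme acts on was not measured here. Its contrast had the opposite sign to those of the GH3 genes. It was at 11.72 and 11.96 in ethylene, 9.88 and 9.88 in air, 10.20 and 10.19 with IAA, and 10.20 and 10.49 in mock. The ethylene arrays were highest, the IAA arrays did not rise above mock, and the contrast was 2.11 ± 0.20 (adjusted p = 0.000112). IAGLU belongs to the UDP-glycosyltransferase family but did not match that list by name, so it is not counted in it. Among the 30 tested genes that matched, UGT74F1 was called positive (1.23 ± 0.29, adjusted p = 0.0344) and UGT84A4 negative (−1.57 ± 0.26, adjusted p = 0.00444). Counts of 1 in 30 each way lie near the shares over all probe sets, 2.04% positive and 2.23% negative, and the median over the 30 was −0.02. The call of UGT74F1 was lost in 8 of 27 other settings, without either mock array among them.

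Expansins are cell wall proteins that loosen the wall during growth. Of 11 tested, 0 were called positive and 4 negative (2.23% of all probe sets were negative), with a median contrast of −0.78. EXPA8 (AT2G40610) was at 3.36 and 3.15 in ethylene, 7.83 and 7.59 in air, 6.49 and 6.67 with IAA, and 7.30 and 7.47 in mock. Both hormones lowered it, ethylene by far the more, with differences of −4.45 ± 0.19 for ethylene and −0.80 ± 0.19 for IAA and a contrast of −3.65 ± 0.26 (adjusted p = 1.4e-05).

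EXPB1 (AT2G20750) showed the same pattern on a smaller scale. It was at 5.97 and 5.51 in ethylene, 9.03 and 9.03 in air, 7.49 and 7.46 with IAA, and 9.13 and 9.11 in mock, and its contrast was −1.65 ± 0.22 (adjusted p = 0.000948). EXPA4 (AT2G39700) instead moved in opposite directions. It was at 7.04 and 6.79 in ethylene, 8.34 and 8.76 in air, 10.59 and 10.16 with IAA, and 9.23 and 8.71 in mock, with a contrast of −3.04 ± 0.49 (adjusted p = 0.00422). The fourth, EXLA1, was called for neither hormone alone and had a contrast of −0.78 ± 0.19 (adjusted p = 0.0437), a call lost in 15 of 27 other settings. Members without a call went both ways. EXPB3 and EXPA15 had negative contrasts of −2.02 and −1.07 that did not pass (limma adjusted p = 0.218 and 0.0699). EXPA7 and EXPA18 had positive contrasts of 1.32 (95% interval 0.12 to 2.51) and 1.06 (95% interval −0.30 to 2.43). These did not pass either (adjusted p = 0.258 and 0.47).

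XTH enzymes cut and rejoin xyloglucan, the main hemicellulose of these walls. Of 8 tested, 1 was positive and 1 negative (2.04% and 2.23% of all probe sets), and the median was 0.04. XTH26 (AT4G28850) was at 6.81 and 5.21 in ethylene, 2.19 and 1.95 in air, 1.92 and 1.92 with IAA, and 1.91 and 1.89 in mock. All Col groups but ethylene were under the background level, so the contrast of 3.92 ± 0.70 (adjusted p = 0.00757) rests on a gene detected in ethylene alone. XTH20 (AT5G48070) was called negative at −1.44 ± 0.34 (adjusted p = 0.038), a call lost in 12 of 27 other settings. Its controls were unlike, with 4.31 and 4.36 in ethylene, 5.06 and 4.65 in air, 8.55 and 8.67 with IAA, and 7.56 and 7.84 in mock. On the mutant arrays described below its contrast was −0.23 and was not called (limma adjusted p = 0.841). XTH16 and XTH21 were lowered by both hormones and did not differ by the test, with contrasts of 0.36 (95% interval −0.29 to 1.01) and −0.58 (95% interval −1.30 to 0.13).

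CSLC12 (AT4G07960), of the family that makes the xyloglucan backbone, was at 6.13 and 5.19 in ethylene, 2.33 and 2.41 in air, 2.37 and 2.37 with IAA, and 2.35 and 2.31 in mock. As for XTH26, only the ethylene arrays were above background, and the contrast was 3.26 ± 0.33 (adjusted p = 0.000172). CSLC12 and XTH26 lay above 4 only on the Col ethylene arrays. Both thus passed the filter on low values only through the group where they were high. Of 6 tested cellulases of family GH9, 0 were called positive (2.04% of all probe sets) and 2 negative (2.23%), with a median of −0.10. GH9C2 (AT1G64390) had a contrast of −1.53 ± 0.18 (adjusted p = 0.000392), through a rise with IAA. It was at 7.89 and 7.64 in ethylene, 8.15 and 8.11 in air, 9.79 and 9.82 with IAA, and 8.69 and 8.57 in mock. GH9B13 was lowered by both hormones, further by ethylene, with a contrast of −0.90 ± 0.22 (adjusted p = 0.0428). GH9C1 had a contrast of 1.65 ± 0.51 that did not pass (adjusted p = 0.108).

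The 15 largest positive and 15 largest negative contrasts among called loci, with every single-array ethylene difference on 1 side of every IAA difference, ran from 3.12 upward and from −3.44 downward. All 609 called probe sets met this condition of no overlap, as did 31.4% of all probe sets. Of the 30, 13 were raised by ethylene with no call for IAA and 8 raised by IAA with no call for ethylene. IAA raised 6 that ethylene lowered (LBD29, CLE44, AT1G64405, AT1G03820, AT5G67430 and AT1G07690), and ethylene raised 2 that IAA lowered (AT2G39980 and AT1G19900). EXPA8 was lowered by both. Many of the 30 carry only a locus code in the annotation used, and no role is given for them.

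AT5G19890 had the largest positive contrast of the named loci, 7.23 ± 0.78 (adjusted p = 0.000247). It was at 11.995 and 12.16 in ethylene, 6.30 and 4.88 in air, 3.44 and 3.99 with IAA, and 3.52 and 5.39 in mock. The ethylene arrays overlapped with no other Col group, while the air and mock arrays each spread over more than 1 log2 unit. AT2G39980 was at 12.35 and 12.51 in ethylene, 8.43 and 7.92 in air, 5.69 and 6.35 with IAA, and 6.83 and 7.15 in mock. It was one of the loci moved apart by the hormones, up with ethylene (4.25 ± 0.21, adjusted p = 5.32e-07) and down with IAA (−0.97 ± 0.21, adjusted p = 0.0194), with a contrast of 5.22 ± 0.30 (adjusted p = 2.5e-06).

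AT1G19900 also moved in opposite directions. It was at 11.97 and 11.74 in ethylene, 9.83 and 9.56 in air, 7.81 and 7.80 with IAA, and 8.97 and 9.29 in mock, and its contrast was 3.49 ± 0.26 (adjusted p = 2.07e-05). CYP718 (AT2G42850), a cytochrome P450, had a contrast of 3.51 ± 0.51 (adjusted p = 0.00183) and unlike controls. It was at 10.04 and 9.97 in ethylene, 6.74 and 6.86 in air, 2.51 and 3.32 with IAA, and 2.51 and 3.94 in mock. AT5G40590 had a contrast of 4.79, AT5G67020 of 3.72, AT2G22880 of 3.65, AT3G11210 of 3.38, AT2G34610 of 3.37, AT3G29410 of 3.26, AT1G76470 of 3.19 and AT5G01210 of 3.12. All of these were raised by ethylene and none was called for IAA. AT3G11210 was under the background level in Col air, IAA and mock, and AT3G29410 in Col IAA and mock, so their contrasts rest on groups under background. Both passed the filter on low values only through ethylene arrays.

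AT1G64405 had a contrast of −6.39 ± 0.23, with the smallest adjusted p of the 15 negative loci (1.08e-07). It was at 3.34 and 3.16 in ethylene, 3.89 and 3.96 in air, 9.46 and 9.67 with IAA, and 3.81 and 3.89 in mock. AT5G14650 was at 2.31 and 2.29 in ethylene, 2.26 and 2.41 in air, 6.62 and 7.75 with IAA, and 2.31 and 2.33 in mock, with a contrast of −4.91 ± 0.43 (adjusted p = 5.7e-05). AT1G22900 was at 1.94 and 1.94 in ethylene, 1.95 and 1.96 in air, 6.46 and 6.91 with IAA, and 1.96 and 1.94 in mock, with a contrast of −4.75 ± 0.25 (adjusted p = 1.36e-06). Both of these last loci were above background only with IAA, and they passed the filter on low values only through IAA arrays.

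The other negative loci of the 15 were AT4G37295 at −5.84, AT1G03820 at −4.57, AT5G66780 at −4.24, AT5G67430 at −3.76, AT2G19970 at −3.70 and AT1G07690 at −3.53. AT1G03820 was moved in opposite directions by the hormones. It was at 3.96 and 4.09 in ethylene, 5.91 and 6.03 in air, 8.71 and 8.48 with IAA, and 6.23 and 5.70 in mock, with an ethylene difference of −1.95 ± 0.29 (adjusted p = 0.00131) and an IAA difference of 2.63 ± 0.29 (adjusted p = 0.000268). AT5G66780 was the least secure, with air arrays at 5.99 and 3.62 and an adjusted p of 0.0182. Its call was lost in 7 of 27 other settings, the first mock array left out among them.

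**Figure D4:**
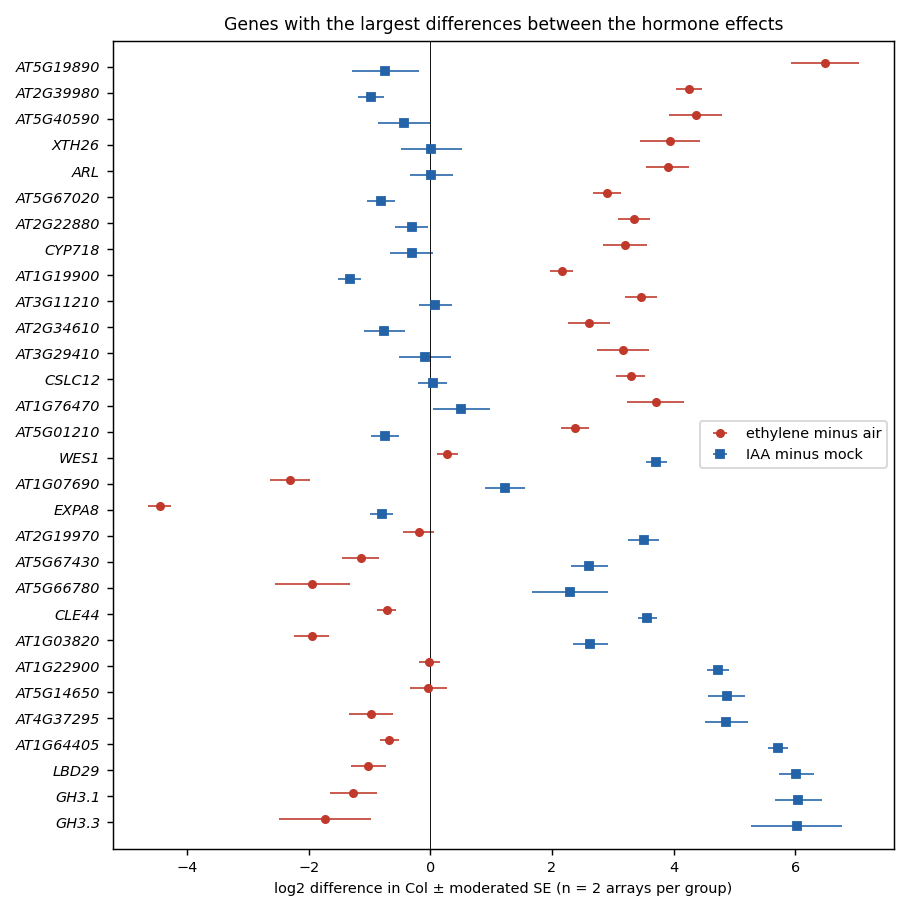
Differences in Col for the 15 named loci with the largest positive and the 15 with the largest negative contrasts, with red circles for ethylene minus air and blue squares for IAA minus mock, each ± its moderated SE, with 2 arrays per group. In the upper 15 the ethylene difference lies between 2.16 and 6.49 while the IAA difference lies below 1, and in the lower 15 IAA lies to the right of ethylene throughout.

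A set of 9 named loci was called in the contrast although both hormones moved them the same way. Ethylene lowered EXPA8, EXPB1, GH9B13, AT5G23400, AT3G59370 and AT3G19320 further than IAA did. IAA raised AT1G62770, AT1G60010 and AT1G54120 further than ethylene did. AT1G62770 was at 8.44 and 8.67 in ethylene, 7.65 and 7.89 in air, 10.90 and 10.74 with IAA, and 7.31 and 6.93 in mock, and its contrast was −2.92 ± 0.24 (adjusted p = 3.48e-05). AT3G19320 was at 2.96 and 3.08 in ethylene, 6.44 and 6.43 in air, 4.80 and 4.50 with IAA, and 6.28 and 6.26 in mock, with a contrast of −1.80 ± 0.24 (adjusted p = 0.00121). The air and mock arrays of AT3G19320 were nearly level, and its ethylene arrays were the lowest. The call of AT1G54120 was lost in 20 of 27 other settings, that of AT5G23400 in 16 and that of GH9B13 in 15.

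Some enzymes and carriers, named after their values were seen, had smaller contrasts. PDC2, a pyruvate decarboxylase of fermentation, had a contrast of 1.45 ± 0.34 (adjusted p = 0.0359), with 7.78 and 7.28 in ethylene, 6.90 and 6.38 in air, 6.75 and 7.25 with IAA, and 7.38 and 7.73 in mock. IVD and MCCB, which act in successive stages of leucine breakdown, had contrasts of 1.13 ± 0.29 (adjusted p = 0.0487) and 0.90 ± 0.23 (adjusted p = 0.0485). ZIP9, of a metal transporter family, was lowered by IAA without an ethylene call, with a contrast of 1.43 ± 0.32 (adjusted p = 0.0285). BRL1, a brassinosteroid receptor, was raised by IAA without an ethylene call, with a contrast of −1.49 ± 0.37 (adjusted p = 0.0456). SKU5, which affects the direction of root growth, was lowered by ethylene without an IAA call, with a contrast of −0.64 ± 0.14 (adjusted p = 0.0281). These 6 calls lie near the threshold and were lost in 7 (ZIP9) to 18 (IVD and MCCB) other settings. Leaving out the first mock array ended all of them but that of PDC2.

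Of 37 gene lists, 25 had a tested member and 10 had a member called in the contrast. Lists were matched by gene symbol or synonym, or by a fixed set of loci. A family member without a matching name was not counted, so these counts cover the matched genes and not whole families. No matched member was called among 16 green tissue genes (median 0.46), 15 ribosomal protein genes (0.31), 7 tubulins (0.04), 6 bHLH factors (0.01), 6 WRKY factors (0.22), 5 class III peroxidases (−0.47), 5 SWEET sugar carriers (−0.23) or 5 core histones (−0.11). The green tissue genes with the smallest p were PSAN at 2.27 (adjusted p = 0.235) and LHCB4.1 at 1.83 (adjusted p = 0.255), and both were high on the first mock array, at 6.82 and 8.62, against 4.13 and 6.32 on the second. Another 12 lists, such as SAUR genes, genes of ethylene synthesis and genes of auxin supply and transport, had no tested probe set that matched, so they were not analysed here. That does not mean that no gene of these families was tested. The list of AP2/ERF factors had no match, although PUCHI, named above, is an AP2-domain factor.

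The mutant arrays gave a parallel contrast from other plants, as ethylene against air in aux1 minus IAA against mock in ein2. Each hormone was given to a different mutant there, so genotype and hormone cannot be separated and the contrast is no plain repeat of that in Col. It called 705 probe sets (4.95%), of which 311 were positive (2.18%) and 394 negative (2.77%). All 16 arrays set the spread used in both tests, so the calls in Col and in the mutants are not fully independent. Without the first ein2 mock array the mutant count was 420, without the second ein2 IAA array 426, without the second aux1 air array 449 and without the second ein2 mock array 463, and it was 1092 with the replicate block.

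Of the 609 probe sets called in Col, 603 had the same sign in the mutants (99.0%), compared with 70.7% of all probe sets tested. The other 6 had the opposite sign, and none was called in the opposite direction. In the mutants 195 of the 291 positive probe sets (67.0%) and 211 of the 318 negative ones (66.4%) were called with the same sign. Taken as a share of the mutants' own calls, this was 62.7% of the positive and 53.6% of the negative ones. The median contrast of the positive set was 1.43 in Col, where the set was chosen, and 1.20 in the mutants, and that of the negative set was −1.47 in Col and −1.20 in the mutants.

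**Figure D5:**
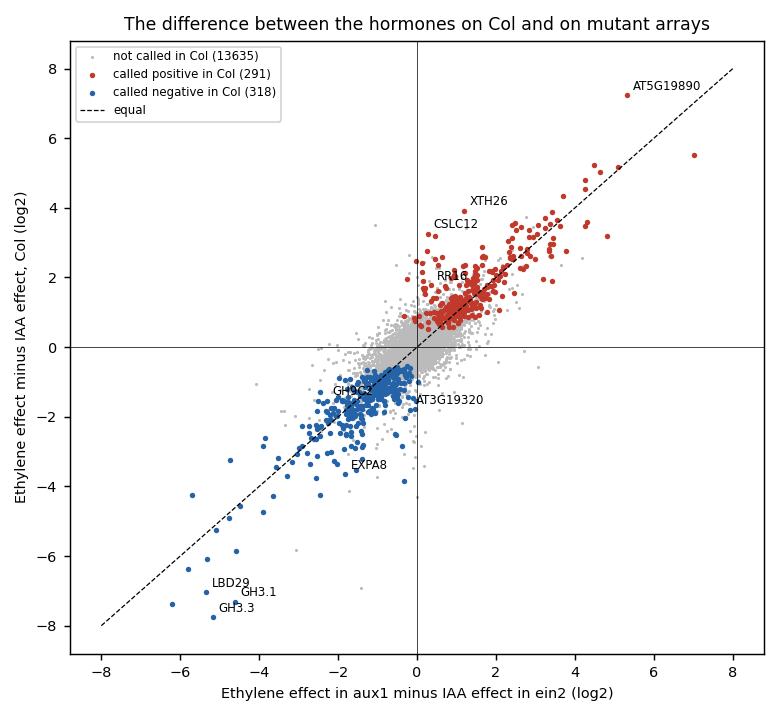
Each point is 1 of 14244 probe sets, with the contrast from mutant arrays (ethylene effect in aux1 minus IAA effect in ein2) on the horizontal axis and the contrast in Col on the vertical axis, both in log2 units, and the dashed line marks equal values. Of the 609 coloured points called in Col, 603 have the same sign on both axes, and CSLC12, XTH26 and AT3G19320 lie close to 0 or well short of the line in the mutants.

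Of the 15 positive and the 15 negative loci with the largest contrasts, 13 and 13 were called in the mutants with the same sign. GH3.3 had a contrast of −7.76 in Col and −5.17 in the mutants, LBD29 −7.03 in Col and −5.34 in the mutants, AT1G64405 −6.39 in Col and −5.79 in the mutants, and AT5G19890 7.23 in Col and 5.32 in the mutants. RTE1 had 2.62 in Col and 2.44 in the mutants, IAGLU 2.11 in Col and 2.22 in the mutants, and EXPA4 −3.04 in Col and −2.78 in the mutants. These genes kept their sign and most of their size on arrays not used for the contrast in Col. AT5G19890 was under background in ein2, at 1.65 and 1.67 in mock and 1.62 and 1.66 with IAA. A fall with IAA could therefore not be seen for it in the mutants.

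The 4 of the 30 that were not called in the mutants were XTH26, CSLC12, AT5G66780 and AT1G07690. CSLC12 was at 2.85 and 2.37 in aux1 with ethylene and at 2.38 and 2.38 in aux1 in air, so it stayed near background where Col had 6.13 and 5.19 in ethylene. The contrast of CSLC12 was 3.26 in Col and 0.27 in the mutants. XTH26 was at 3.93 and 2.25 in aux1 with ethylene and at 1.93 and 1.92 in aux1 in air, with a contrast of 3.92 in Col and 1.18 in the mutants. RR16, outside the 30, had a contrast of 1.78 in Col and 0.36 in the mutants.

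The difference between Col and the mutants was itself tested, and limma called 0 of 14244 probe sets, with 393 at an unadjusted p under 0.05 where 712.2 would be expected by chance. This fit did not pair arrays by replicate number, whereas the blocked fit given below did. Why fewer probe sets than expected fell under 0.05 was not tested. The 0 calls do not show that the contrasts in Col and in the mutants are equal. The named differences with the smallest p were CSLC12 at 2.99 ± 0.47 (adjusted p = 0.122), EXPA8 at −1.83 ± 0.37 (adjusted p = 0.523) and AT3G19320 at −1.62 ± 0.34 (adjusted p = 0.546). CSLC12 was among the tested probe sets only through its Col ethylene arrays. With the replicate number as a block 3 probe sets were called, EXPA8 (adjusted p = 0.0462), AT2G39690 and 1 without a name, and with no filter on low values 5 were called. Without the second air array 26 were called. EXPA8 was at 6.61 and 6.06 in aux1 with ethylene and at 8.19 and 8.04 in aux1 in air, against 3.36 and 3.15 in Col with ethylene and 7.83 and 7.59 in Col in air.

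Because each hormone had its own control, the level of a gene in the controls bears on its contrast. Air and mock differed by 1 log2 unit or more at 43 of the 609 called probe sets (7.06%) and at 363 of all those tested (2.55%). A gene at background in its control cannot be seen to fall. Of the 153 probe sets raised by IAA with no call for ethylene, 10 had a mean under the background level in air, and of the 105 lowered by ethylene with no call for IAA, 0 had one in mock.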

How the data were processed

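Expression was measured on 16 Affymetrix arrays in 8 groups of 2. The deposited values are log2 expression values per probe set, made by the authors with GCRMA per the submitters' processing notes; its version and settings are not given in the sources used here, and the scale was inferred from the range of values. No further normalization was applied. Precision is limited by the number of arrays. The 64 control probe sets were left out.

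Group means of all 16 arrays were fitted with limma 3.58.1 (R 4.3.3), with 8 residual and 3.36 prior degrees of freedom. A call needed a two-sided p under 0.05 after Benjamini-Hochberg adjustment across the 14244 tested. Background percentages are shares of those 14244. Genes were named from the platform annotation with current symbols from RefSeq, where a probe set had 1 gene with a locus code.

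The genes named include the 15 largest called contrasts in each direction without overlap of single-array differences. Called loci that both hormones moved the same way were also named, as were loci called for Col minus mutants. From the lists came up to 4 members by p, counted members, and a few others of larger p, such as EXPA18 and XTH16. Another 8 were chosen after their values were seen (PUCHI, BRL1, IAGLU, PDC2, IVD, MCCB, ZIP9 and SKU5). The comparison, the members and the lists were chosen with earlier results of these data known, and 3 list patterns were corrected after their matches were seen.

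Same-numbered arrays of 1 experiment deviated together (correlations of deviations from group means 0.109 to 0.420, against −0.145 to 0.0148 across experiments), so the numbers were taken to pair arrays within an experiment, and blocked counts are printed where they differ by over 1.5 times. Nothing says more of the replicates than that they are biological. On simulated data with the design of the Col contrast, 14244 features and 200 changed, the fit recovered 93% of changes of 2 log2 units and 100% of those of 3, with 13 false calls. A change counted as recovered if it was called, whatever its direction. The simulated noise was independent between arrays, unlike the shared deviations above, and the changes lay in Col ethylene alone. Recovery of smaller changes was not tested.

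Alternatives were median centring, quantile normalization, no filter or a filter at 6, an intensity trend, the 8 arrays of a contrast alone, 1 probe set per locus, a 2-fold limit, effects divided by their SD, the replicate block, each array left out, and, added after seeing the data, named loci only.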

Additional observations from a re-analysis of the deposited data

How the results depend on the processing

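Of the 55 named genes called in the contrast, 39 kept their call under all 27 other settings run for most of them, as did 28 of the 30 with the largest contrasts, and 0 changed sign. The exceptions among the 30 were AT1G76470, lost in 5 settings, and AT5G66780, lost in 7. Leaving out the first mock array, which was high in green tissue genes, ended 13 of the 55 calls, 1 of them among the 30. With 2 arrays per group, leaving out an array leaves a group of 1, assumed to vary like the others. Of 55 named genes without a call, 14 were called in some setting.

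The counts moved more. With named loci only, which tests fewer features, there were 282 calls for the contrast, 611 for ethylene, 518 for IAA and 326 for the mutants. A 2-fold limit left 526 for ethylene and 318 for IAA. Pairing arrays through the replicate block gave 1018 for the contrast, 1604 for IAA, 1092 for the mutants and 3 for Col minus mutants, and it moved the ethylene count to 1828. No filter gave 5 for Col minus mutants, AT2G18420, AT2G47720, AT2G19200 and 2 without a name. Leaving out each array in turn gave 366 to 605 for the contrast, 731 to 1295 for ethylene, 413 to 1043 for IAA, 420 to 741 for the mutants and 0 to 26 for Col minus mutants. The cause of these shifts beyond fewer arrays or features was not tested.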
